A study of Mus musculus with 9 samples.

Results

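The genes described here encode the enzymes, receptors and transporter that produce, sense and clear extracellular adenosine. They are 9 of the 24391 genes listed in the deposited tables and were taken by gene symbol, namely Entpd1, Nt5e, Cd38, Adora2a, Adora2b, Ada, Dpp4, Slc29a1 and Adk. All 9 passed the low-count filter, which 11981 genes passed. The genes were chosen by their role together with their measured levels and LSD1i over NT fold changes in these same libraries. Their differences between groups are therefore given as a description, and an adjusted p-value only places a gene among all genes tested.

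RNA was sequenced from mouse CD8+ T cells activated in culture for 72 h with interleukin 2 at 100 U/mL. The cells of 4 libraries were activated with an inhibitor of LSD1 (LSD1i) and those of 5 libraries were not treated (NT). LSD1 is a histone demethylase. The sources used here do not name the inhibitor, its dose, or the strain and age of the mice. Replicates are numbered, but no label ties a number to an animal or a culture. The spread behind every p-value is thus that of these libraries and may be technical.

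Extracellular ATP released by cells is cut to AMP by CD39, and CD73 cuts AMP to adenosine. Adenosine raises cyclic AMP in T cells through the receptors encoded by Adora2a and Adora2b, which dampens T cell receptor signalling, and it is cleared by deamination or by uptake and phosphorylation. The axis is best known in T cells as a restraint on effector function in inflamed tissue and tumours.

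Library totals ranged from 15163983 to 29245278 counted reads. The deposited raw and batch-corrected tables give opposite group names to 4 libraries, those numbered 1 and 2 in each group, and the same names to the other 5. A library was matched across the tables by counting genes at zero in one table and above zero in the other, of which each matched pair had 0 and the next best pair at least 1336. The labels do not say which names are right, and values below carry the names of the batch-corrected table unless another table is named. The libraries also fell into 2 sets by the correction applied to them, replicates 1 and 2 against replicates 3 to 5, which the labels do not mention. Gfi1, a repressor that works with LSD1, bears on the names. In raw counts scaled by depth it was at 324 and 282 CPM (counts scaled to library size) in LSD1i 3 and LSD1i 4, against 129, 132 and 114 CPM in NT 3 to NT 5. The 4 libraries with opposite names were at 330 and 330 CPM where the batch-corrected table writes LSD1i 1 and LSD1i 2, against 124 and 152 CPM where it writes NT 1 and NT 2. For this gene they thus lie with replicates 3 to 5 of the same group under the batch-corrected names, and no library was assigned to a group from this value. The set of replicates 3 to 5 is the one in which both tables agree on names. Summed over 7 markers of CD8+ T cells, the level was 2140 to 2270 CPM in LSD1i and 1880 to 2100 CPM in NT libraries. Cd8a averaged 484 ± 20.6 CPM in LSD1i and 373 ± 29.9 CPM in NT cells (SD, n = 4 and 5). Cd8b1, Cd3d and Cd3g also averaged higher in LSD1i cells, at 324, 292 and 350 against 268, 265 and 328 CPM. Lck was level, at 464 and 460 CPM. Cd2 averaged lower in LSD1i cells (224 ± 50.6 against 283 ± 30.1 CPM), as did Cd3e, the lowest marker (48 ± 22.1 against 57.8 ± 32.1 CPM). Cd4 averaged 0.095 and 0.131 CPM in LSD1i and NT cells and Foxp3, which defines regulatory T cells that carry CD39 and CD73, averaged 0.185 and 0.0778 CPM. Of the other markers of CD4+ T cells, Cd40lg averaged 1.21 CPM in LSD1i and 0.0895 CPM in NT cells and Zbtb7b 41.8 and 38.1 CPM. Summed over these 4 markers the level was 39.4 to 46.9 CPM in LSD1i and 28.4 to 46.5 CPM in NT libraries, and their part in the results was not tested. Summed over 7 B cell markers, the level was 1.65 to 2.26 CPM in LSD1i and 0.0659 to 0.623 CPM in NT libraries. Cd22 made up most of it, and the other 6 averaged at most 0.0713 CPM over the 9 libraries. In bulk RNA, fewer cells that express a gene and less of its RNA per cell cannot be told apart.

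The sequences upstream of Nt5e, Adora2b and Entpd1 are shown because these are the genes whose LSD1i and NT libraries did not overlap in batch-corrected counts. Each holds the 250 bases before a RefSeq start on the plus strand of GRCm38.p6, at chr9:88327359-88327608 for Nt5e, chr11:62248734-62248983 for Adora2b and chr19:40612116-40612365 for the first of 2 Entpd1 windows. These coordinates do not apply to mm9, the build named for the counts. Capitals mark the GC box GGGCGG, bound by Sp1 family factors, on either strand in Nt5e and Adora2b, and in Entpd1 the TGACG core of the cyclic AMP response element on either strand.
Nt5e: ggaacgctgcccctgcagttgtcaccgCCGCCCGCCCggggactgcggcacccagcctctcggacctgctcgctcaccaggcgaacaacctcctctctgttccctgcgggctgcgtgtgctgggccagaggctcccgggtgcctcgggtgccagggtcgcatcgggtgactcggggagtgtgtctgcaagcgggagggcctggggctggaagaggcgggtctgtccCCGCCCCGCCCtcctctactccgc
Adora2b: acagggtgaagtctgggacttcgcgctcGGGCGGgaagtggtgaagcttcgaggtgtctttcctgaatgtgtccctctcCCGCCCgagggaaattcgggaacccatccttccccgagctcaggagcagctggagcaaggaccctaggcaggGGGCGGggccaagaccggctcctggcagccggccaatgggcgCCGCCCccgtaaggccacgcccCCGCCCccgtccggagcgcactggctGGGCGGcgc
Entpd1: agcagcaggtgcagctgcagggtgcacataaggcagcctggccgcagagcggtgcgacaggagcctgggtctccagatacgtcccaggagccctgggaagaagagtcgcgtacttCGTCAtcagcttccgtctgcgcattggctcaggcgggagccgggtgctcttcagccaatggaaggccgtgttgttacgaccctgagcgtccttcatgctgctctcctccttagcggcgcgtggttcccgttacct

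The Nt5e window held 4 GC boxes, in pairs of overlapping matches, and the Adora2b window held 6. At least 4 were found in 4.09% and at least 6 in 0.886% of the 32851 RefSeq windows of this length, and at least 1 in 32.7%. Entpd1 had 0 GC boxes in this window. Its 1 TGACG core is a match that 17.8% of the windows share, and its second window also held 1. An Adk window and a Slc29a1 window, before genes whose groups overlapped, held 1 as well. The full element TGACGTCA, present in 1.55% of windows, and the hypoxia response element core ACGTG, present in 16.6%, were not in any of the 3 windows printed. RefSeq windows were matched for 8 of the 9 genes. GC boxes were also found before genes whose groups overlapped. Among 8 Slc29a1 windows, 1 held 5 (at least 5 in 1.93% of windows) and the others at most 1. The 2 Adk windows held 2 and 3, and the Ada window 1. Cd38 and Dpp4 had 0. A match describes letters only, and binding was not measured.

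Among the producing enzymes, Nt5e was higher and Entpd1 lower in LSD1i cells. Nt5e encodes CD73, the surface enzyme that makes adenosine from AMP. It was at 73.5, 42.7, 87.4 and 47.7 CPM in LSD1i 1 to LSD1i 4, against 40.3, 18.7, 36.1, 29.1 and 13.9 CPM in NT 1 to NT 5. Every LSD1i library lay above every NT library, and both groups spread widely. They overlapped in raw counts scaled by depth, at 29.9 to 131 CPM in LSD1i and 13 to 53.3 CPM in NT libraries. The batch-corrected means were 62.9 ± 21.2 CPM in LSD1i and 27.6 ± 11.2 CPM in NT cells (SD), a log2 fold change of 1.18 ± 0.31 (SE). Its adjusted p in edgeR's quasi-likelihood test was 0.0639, outside the threshold of 0.05. In the authors' deposited table Nt5e has a log2 fold change of 1.19 and a false discovery rate of 0.0339 but carries no mark of change. The smallest log2 fold change that table marks is 1.20 in size.

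Entpd1 encodes CD39, which supplies the AMP. It had 2.59, 3.40, 3.22 and 3.92 CPM in LSD1i 1 to LSD1i 4 and 4.61, 8.17, 4.50, 4.02 and 8.32 CPM in NT 1 to NT 5. The groups did not overlap, although NT 4 lay just above LSD1i 4, and NT 2 and NT 5 stood well above the other NT libraries. Its log2 fold change was −0.84 ± 0.25 with an adjusted p of 0.115 in edgeR's test. The gene is thinly covered, with 37 to 107 raw reads in LSD1i and 84 to 253 in NT libraries. The 95% binomial interval (Clopper-Pearson, counting error only) was 1.46 to 2.85 raw CPM in LSD1i 1 and 10.2 to 13 in NT 5. It was 4.01 to 5.92 in LSD1i 4 and 3.45 to 5.36 in NT 4, which overlap. In raw counts scaled by depth the groups overlapped, at 1.94 to 5.05 CPM in LSD1i and 3.61 to 11.4 CPM in NT libraries. Per kilobase of exon, in batch-corrected counts, the ratio of Nt5e to Entpd1 was 13.2 to 30.9 in LSD1i and 1.82 to 9.51 in NT libraries. This ratio restates the differences of Nt5e and Entpd1 and adds no separate evidence.

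Cd38 encodes an enzyme that degrades NAD to ADP-ribose, the start of a second route to AMP. Its levels overlapped, at 4.28 to 6.14 CPM in LSD1i and 4.49 to 6.79 CPM in NT libraries, and its log2 fold change was −0.27 ± 0.16 (edgeR adjusted p = 0.505). The next enzyme of that route, the surface pyrophosphatase Enpp1, is described with the other pathway genes.

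**Figure D1:**
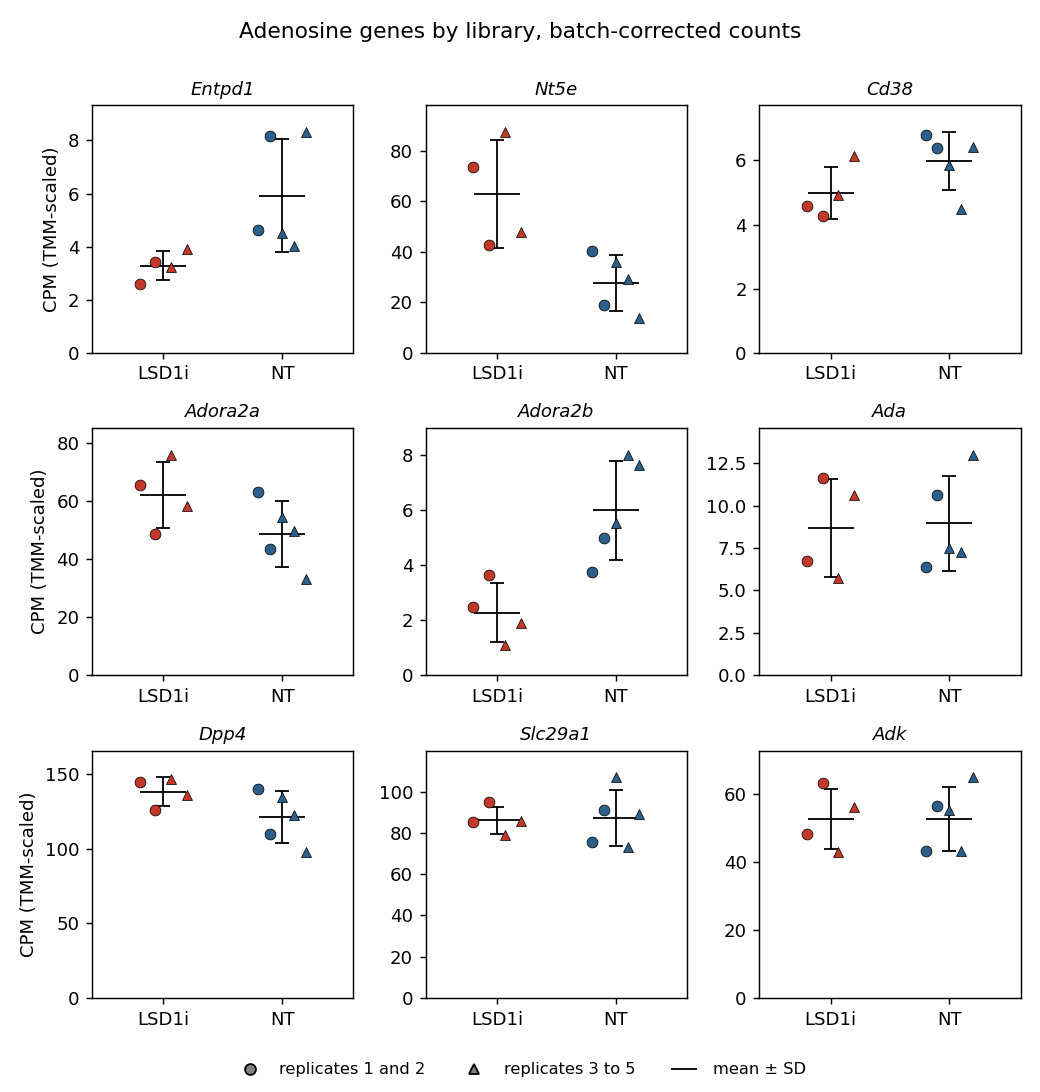
CPM of the 9 adenosine genes in each library from batch-corrected counts, LSD1i left and NT right. Circles are replicates 1 and 2, triangles replicates 3 to 5, and bars the mean ± SD. Nt5e, Entpd1 and Adora2b separate the groups, with Adora2b at 1.11 to 3.66 CPM in LSD1i and 3.77 to 8.03 CPM in NT libraries, and the other 6 genes overlap. In raw counts scaled by depth Nt5e and Entpd1 overlap too.

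Among the receptor genes, Adora2b was lower in LSD1i cells and Adora2a was not separated between groups. Adora2b encodes the low-affinity adenosine receptor of the pair. It stood at 2.48, 3.66, 1.11 and 1.89 CPM in LSD1i 1 to LSD1i 4, against 3.77, 5.01, 5.54, 8.03 and 7.65 CPM in NT 1 to NT 5. The groups did not overlap, with LSD1i 2 and NT 1 closest to each other. The means were 2.29 ± 1.08 and 6 ± 1.80 CPM (SD) in LSD1i and NT cells, a log2 fold change of −1.38 ± 0.32. It was the 1 gene of the 9 called, at an edgeR adjusted p of 0.0385, where 3.31% of all tested genes were called in either direction and 1.16% lower in LSD1i. Because the list was made with this contrast known, the count is not read against that share. The call was lost without LSD1i 1 (adjusted p = 0.105), LSD1i 3 (0.0891), LSD1i 4 (0.139), NT 2 (0.0615), NT 3 (0.0724), NT 4 (0.0964) or NT 5 (0.0684) in edgeR's test. Its raw reads numbered 19 to 71 in LSD1i and 76 to 170 in NT libraries. The 95% binomial interval of LSD1i 3, the lowest, was 0.643 to 1.67 raw CPM. Those of LSD1i 2 and NT 1 overlapped, at 2.79 to 4.5 and 2.72 to 4.08 raw CPM. Their raw CPM, 3.57 and 3.35, stood in the reverse order. The authors' deposited table marks Adora2b as lower, with a log2 fold change of −1.37 and a false discovery rate of 0.0397.

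Adora2a encodes the high-affinity receptor, the main adenosine receptor of T cells. It was at 65.5, 48.9, 76.1 and 58.5 CPM in LSD1i 1 to LSD1i 4 and 63.2, 43.4, 54.7, 49.7 and 33.2 CPM in NT 1 to NT 5. The groups overlapped, NT 5 being the lowest of all. Its log2 fold change was 0.35 ± 0.18 (edgeR adjusted p = 0.410). Per kilobase of exon, in batch-corrected counts, Adora2a was 9.50 to 48.7 times Adora2b in LSD1i and 3.08 to 11.9 times in NT libraries. The other receptor genes of the family, Adora1 and Adora3, stayed below the filter, at no more than 0.176 and 0.222 CPM in any library.

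The 4 genes grouped here under clearance, Ada, Adk, Slc29a1 and Dpp4, overlapped between LSD1i and NT cells. None passed the test, the log2 fold change farthest from 0 being 0.19 for Dpp4. In edgeR's test 3 of the 9 genes had an unadjusted p under 0.05, all outside this group. The share of all tested genes under that limit was not counted for LSD1i over NT. Such counts, here and below, are thus a description only. Ada encodes adenosine deaminase, which turns adenosine into inosine and whose loss in humans causes severe combined immunodeficiency. It was at 6.73, 11.6, 5.74 and 10.6 CPM in LSD1i 1 to LSD1i 4 and 6.40, 10.6, 7.48, 7.24 and 13 CPM in NT 1 to NT 5, and each group spanned about the same range. Its log2 fold change was −0.04 ± 0.26. Adk encodes adenosine kinase, which returns adenosine to AMP inside the cell. It ranged from 42.9 to 63.1 CPM in LSD1i and 43.1 to 64.9 CPM in NT libraries, a log2 fold change of 0.00 ± 0.15. Slc29a1 encodes the equilibrative nucleoside transporter ENT1, through which adenosine enters the cell. It ranged from 78.9 to 94.9 CPM in LSD1i and 73.1 to 107 CPM in NT libraries (−0.02 ± 0.11). An antisense gene, Gm17080, shares 10.4% of its exon bases, and whether reads were counted by strand is not stated. Dpp4 encodes CD26, a surface peptidase that in humans anchors adenosine deaminase. A part in adenosine clearance by these mouse cells was not tested. Dpp4 was at 126 to 147 CPM in LSD1i and 98.1 to 140 CPM in NT libraries (0.19 ± 0.11). Adjusted p-values of these 4 genes in edgeR's test were 0.971, 0.998, 0.973 and 0.472 for Ada, Adk, Slc29a1 and Dpp4. Over the 9 genes the median log2 fold change was −0.02, as over all genes tested (−0.02), and 3 of 9 had groups that did not overlap, against 7.86% of all tested genes. In raw counts scaled by depth, with the same names, 1 of 9 did not overlap, Adora2b, against 3.44% of tested genes. Its groups then nearly touched, at 3.44 CPM in LSD1i 2 and 3.47 CPM in NT 1, a gap within counting error.

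Levels can be ordered between genes only per length, here as CPM per kilobase of exon in the GENCODE M21 annotation of GRCm38, which may not be the annotation used for counting. In NT cells Slc29a1 was highest at 32.8 ± 5.10, followed by Adk (27 ± 4.80), Dpp4 (23.0 ± 3.27) and Adora2a (18.8 ± 4.37), all SD over 5 libraries. Each of these overlapped its neighbour in range. A gap followed, and Nt5e (6.91 ± 2.81), Ada (5.31 ± 1.65), Adora2b (3.25 ± 0.978), Cd38 (1.83 ± 0.275) and Entpd1 (1.36 ± 0.490) made up the lower group, again with ranges that overlapped between neighbours. In LSD1i cells the same 4 genes led, from Slc29a1 (32.4 ± 2.48) to Adora2a (24.0 ± 4.43), all SD over 4 libraries. Nt5e came next at 15.7 ± 5.31, with a highest library of 21.9 that overlapped the lowest of Adora2a at 18.8. Adora2b at 1.24 ± 0.583 ranked below Cd38 at 1.52 ± 0.249, the reverse of their order in NT cells, with overlapping ranges in both groups. Slc29a1, Adk, Dpp4 and Adora2a were thus the most abundant of the 9 in both groups by mean, and Entpd1 the least.

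**Figure D2:**
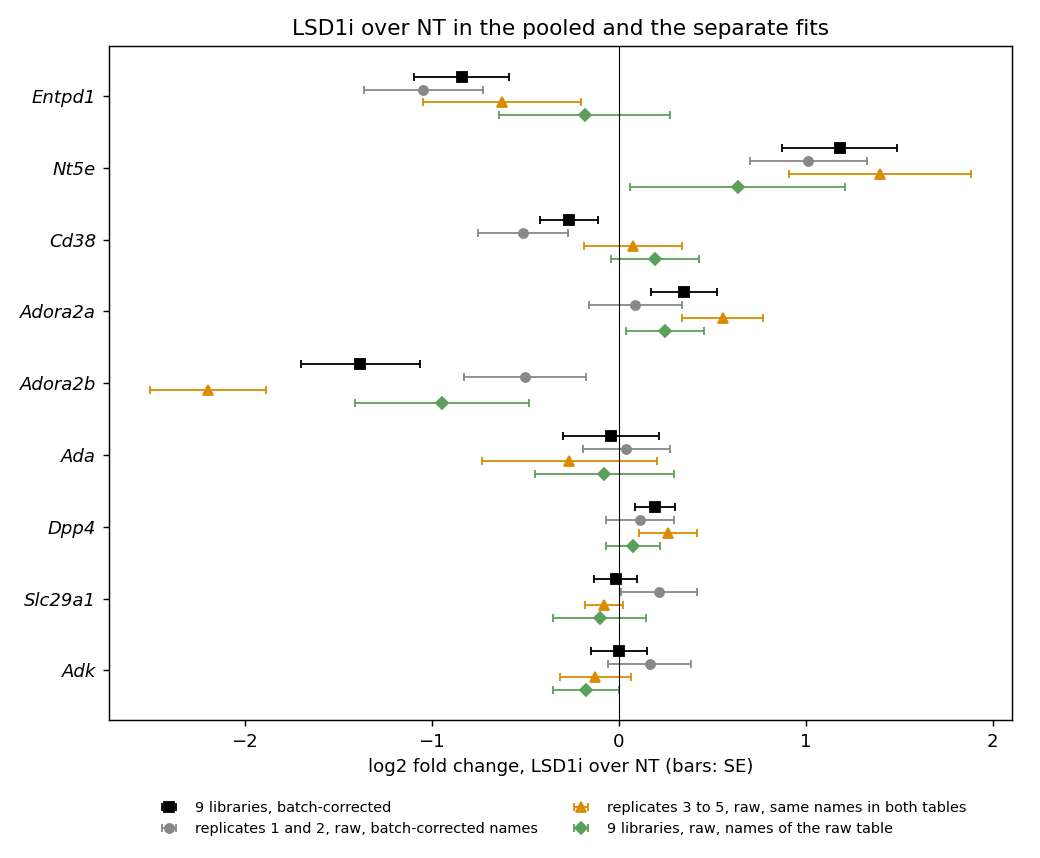
Log2 fold change of LSD1i over NT for each of the 9 genes with its SE, in the 9 batch-corrected libraries, in each set of raw libraries, and in all raw libraries with the names of the raw table. Nt5e lies above 0 and Adora2b and Entpd1 below 0 in all 4 fits, and Adora2b is at −0.50 in replicates 1 and 2 and −2.20 in replicates 3 to 5.

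The raw reads were compared within each set of libraries to see whether the differences hold there. In the set that both tables name alike, the raw reads of Nt5e numbered 2244 in LSD1i 3 and 1308 in LSD1i 4, against 1128, 777 and 362 in NT 3, NT 4 and NT 5. Adora2b had 19 and 40 reads in these LSD1i libraries, against 116, 150 and 170 in the NT libraries. The log2 fold changes were 1.40 ± 0.49 for Nt5e (edgeR adjusted p = 0.281) and −2.20 ± 0.31 for Adora2b (0.0361, where 0.166% of tested genes were called lower and 0.969% in either direction). Entpd1 was at −0.62 ± 0.42 and Adora2a at 0.56 ± 0.22, with adjusted p-values of 0.572 and 0.330 in edgeR's test.

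In the libraries numbered 1 and 2, with the names of the batch-corrected table, Nt5e had 817 and 617 raw reads in LSD1i and 629 and 209 in NT. Adora2b had 45 and 71 reads in LSD1i and 98 and 76 in NT. The NT 1 library was the deepest, 13.3% of its reads being the ribosomal RNA precursor Rn45s against 1.66% to 2.87% in the others. Scaled for depth, the log2 fold changes were 1.01 ± 0.31 for Nt5e, −0.50 ± 0.32 for Adora2b and −1.05 ± 0.32 for Entpd1. None of the 9 genes was called in this set, where edgeR's adjusted p-values were 0.774, 0.926 and 0.770 for these 3 and 0.0676% of tested genes were called, and 2 of the 9, Nt5e and Entpd1, had an unadjusted p under 0.05. Under the names of the raw table these 4 libraries change sides, and the pooled log2 fold changes were 0.63 ± 0.57 for Nt5e, −0.94 ± 0.46 for Adora2b and −0.18 ± 0.46 for Entpd1, each with an edgeR adjusted p of 0.999. Of the 11916 genes tested under those names 0% were called, and 0 of the 9 had an unadjusted p under 0.05. Of the 9 genes, 5 had the same sign in both sets.

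Adora2b was the gene of the list whose difference varied most between sets. The difference of its log2 fold change, replicates 3 to 5 minus replicates 1 and 2, was −1.73 ± 0.47, with an unadjusted p of 0.00421 and an adjusted p of 0.764 in edgeR's test of the interaction. None of the 11916 genes tested was called by that test, 0% of them, and 581 (4.88%) had an unadjusted p under 0.05. Without the low-count filter it called 320 of 20052 genes (1.6%), Adora2b among them (edgeR adjusted p = 0.0112). Without NT 2 it called 401 of 11880 genes (3.38%), and Adora2b was at −1.95 ± 0.52 and not called (edgeR adjusted p = 0.0809). That fit left NT 1, with 13.3% of its reads from Rn45s, as the only NT library of replicates 1 and 2. Its calls thus cannot tell a difference between sets from a trait of NT 1, and no conclusion is drawn from them. With all libraries the difference between sets was 0.35 ± 0.69 for Nt5e and 0.39 ± 0.60 for Entpd1, both with wide errors. With the set as a term in a fit of raw counts, Adora2b was at −1.37 ± 0.36 (edgeR adjusted p = 0.102) and Nt5e at 1.23 ± 0.34 (0.119), so that no gene of the 9 was called, against 1.85% of tested genes, and 3 had an unadjusted p under 0.05. DESeq2 called 3 of the 9 on batch-corrected counts, Nt5e, Adora2b and Entpd1, against 4.85% of its tested genes. Without the low-count filter edgeR called 2, Nt5e and Adora2b, against 1.98%.

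Within each group the libraries were also spread along a pattern shared by several of these genes. Libraries high in Nt5e for their group were high in Adora2a and Dpp4 and low in Ada and, except for NT 3, in Adk. This pattern is that of batch-corrected counts. After the group means of log2 CPM were removed, NT 1, NT 3, NT 4, LSD1i 1 and LSD1i 3 lay above 0 for Nt5e, at 0.186 to 0.652, and NT 2, NT 5, LSD1i 2 and LSD1i 4 below, at −0.877 to −0.333. Ada had the opposite sign in each of the 9 libraries. In raw counts scaled by depth, Nt5e was at 42.8, 29.9, 131 and 61.8 CPM in LSD1i 1 to LSD1i 4. Adora2a was at 66.8, 49, 71.6 and 55.3 CPM there. In NT 1 to NT 5 they were at 22.3, 13, 53.3, 41.3 and 16.3 CPM and at 63.2, 43.9, 51.4, 47.1 and 32.1 CPM. LSD1i 1 thus stood below LSD1i 4 and NT 1 below NT 3 for Nt5e, the reverse of Adora2a. The correlations below were taken in batch-corrected counts only. Over the 9 libraries Nt5e correlated with Adora2a at Pearson's r = 0.969 (Spearman's rho = 1.00) and with Dpp4 at 0.965 (0.983). Against Ada r was −0.967 (rho = −0.917) and against Adk −0.839 (−0.850). Without NT 5 and LSD1i 2, whose Nt5e deviations were farthest from the median of the 9, r was 0.951 for Adora2a, 0.931 for Dpp4, −0.942 for Ada and −0.678 for Adk.

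The other 4 genes followed this pattern less closely. Entpd1 had r = −0.819 and rho = −0.650 with Nt5e, Adora2b −0.575 and −0.633, Slc29a1 −0.314 and −0.467, and Cd38 −0.147 and 0.05. The pattern was wide, since 11.4% of the other 11980 tested genes had an absolute r of at least 0.9 with Nt5e and 26.7% at least 0.8. These relations were noticed in the data and are given as a description with no test, and each set holds at most 3 libraries of a group, too few for a value within a set.

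**Figure D3:**
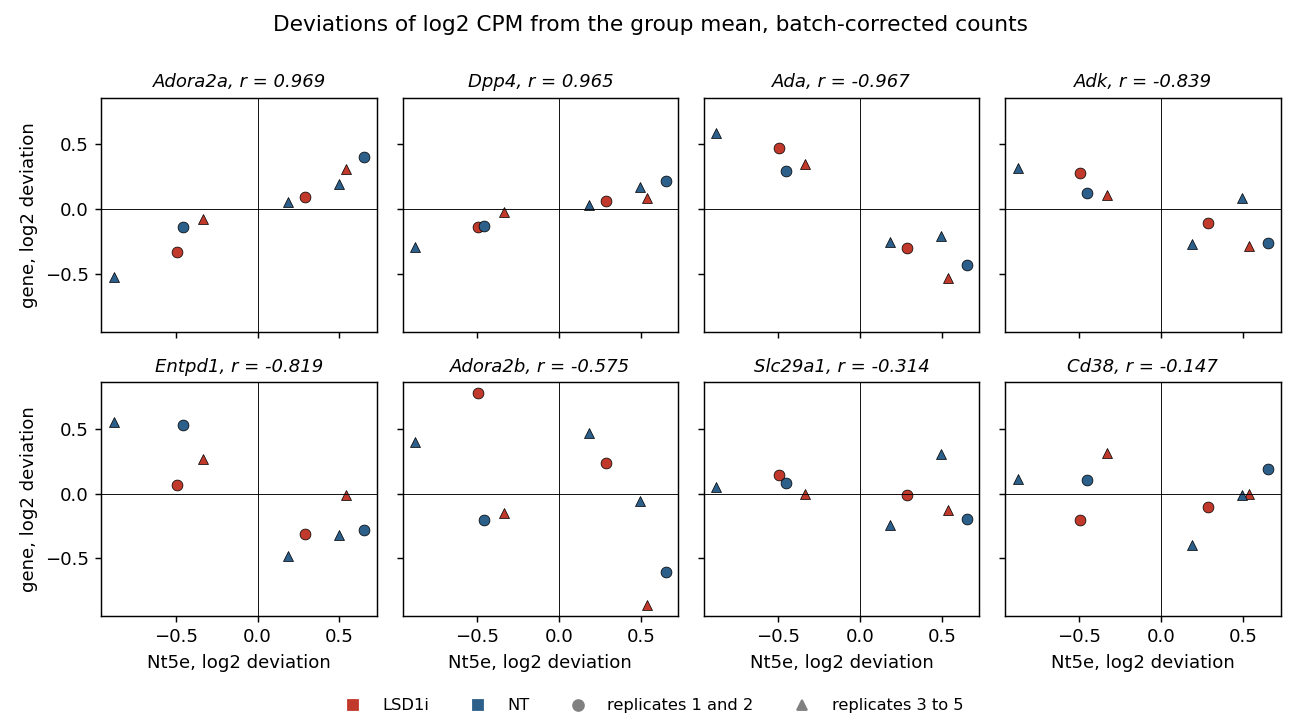
Deviation of log2 CPM from the group mean for Nt5e (x axis) and each of the other 8 genes (y axis), 1 point a library, red for LSD1i and blue for NT. CPM are from batch-corrected counts. Adora2a and Dpp4 lie along a rising line with Nt5e (r = 0.969 and 0.965) and Ada along a falling one (r = −0.967), in both groups.

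The genes most like each of the 3 separated genes were sought among 9836 genes whose mean log2 CPM reached 2, by Pearson's r of log2 CPM over the 9 libraries. For Adora2b they included Ggh (r = 0.995) and Txlna (0.976). For Nt5e they were Cux1 (0.994), Nrn1 (0.988) and P2ry10 (0.983), and for Entpd1 Jmjd4 (0.970), H2-T24 (0.964) and Ly6e (0.961). Their log2 fold changes were smaller than those of the gene they resemble, from −0.42 ± 0.11 for Ggh to 0.59 ± 0.17 for Nrn1, and none passed (edgeR adjusted p from 0.0686 for Ggh to 0.379 for Jmjd4). H2-T24 belongs to a family of near-identical genes that can share reads.

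The wider pathway was described with 8 lists of 135 symbols, among them the genes above, of which 131 were in the tables and 98 were tested. Of these 98, 3 rose and 4 fell in LSD1i cells at an edgeR adjusted p under 0.05, against 2.15% and 1.16% of all tested genes. Their median log2 fold change was −0.03, that of all tested genes −0.02. DESeq2 called 4 of 9 surface enzymes, 1 of 5 ATP release genes and 1 of 2 adenosine receptors. It called 3 of 6 nucleotide receptors and 1 of 14 genes with cyclic AMP response elements, against 4.85% of all genes it tested. In edgeR's test 4, 4, 1, 4 and 2 genes of these lists, in that order, had an unadjusted p under 0.05. Among ectonucleotidases and other surface enzymes, 0 of 9 rose, 1 fell and 8 did not pass, with a median of −0.20. Enpp1, which makes AMP from ATP and from ADP-ribose, was at 9.55, 12.3, 10.1 and 8.74 CPM in LSD1i 1 to LSD1i 4, against 13.9, 15, 14.4, 19.2 and 14.8 CPM in NT 1 to NT 5. The groups did not overlap, although they did in raw counts scaled by depth (7.59 to 11.5 CPM in LSD1i and 10.3 to 20.8 CPM in NT libraries), and Enpp1 fell by 0.61 on the log2 scale (SE 0.13, edgeR adjusted p = 0.0288). Its values were −0.34 and −0.73 in replicates 1 and 2 and in replicates 3 to 5. The call was lost without LSD1i 1, LSD1i 3, LSD1i 4, NT 2, NT 3 or NT 4 (edgeR adjusted p = 0.107, 0.0909, 0.113, 0.0624, 0.0533 and 0.0558). Alkaline phosphatase Alpl, which also makes adenosine from AMP, averaged 2.18 ± 0.300 CPM in LSD1i and 1.22 ± 0.339 CPM in NT cells and did not pass (0.85 ± 0.22, edgeR adjusted p = 0.0635).

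Of 5 tested ATP release channels and carriers, 1 rose, 0 fell and 4 did not pass, with a median of 0.02. Panx1 encodes pannexin 1, a membrane channel through which T cells release ATP. It was at 83.8, 80.3, 85.2 and 86.1 CPM in LSD1i 1 to LSD1i 4, against 59.0, 59.9, 57.5, 51.4 and 60.1 CPM in NT 1 to NT 5. Both groups were tight and lay well apart, and Panx1 rose by 0.54 ± 0.07 on the log2 scale (edgeR adjusted p = 0.00178), by 0.46 and 0.61 in the sets of replicates 1 and 2 and 3 to 5. Slc17a9, the vesicular nucleotide transporter, was at 15.4 ± 1.61 CPM in LSD1i and 19.7 ± 1.92 CPM in NT cells and did not pass (−0.36 ± 0.11, edgeR adjusted p = 0.110).

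**Figure D4:**
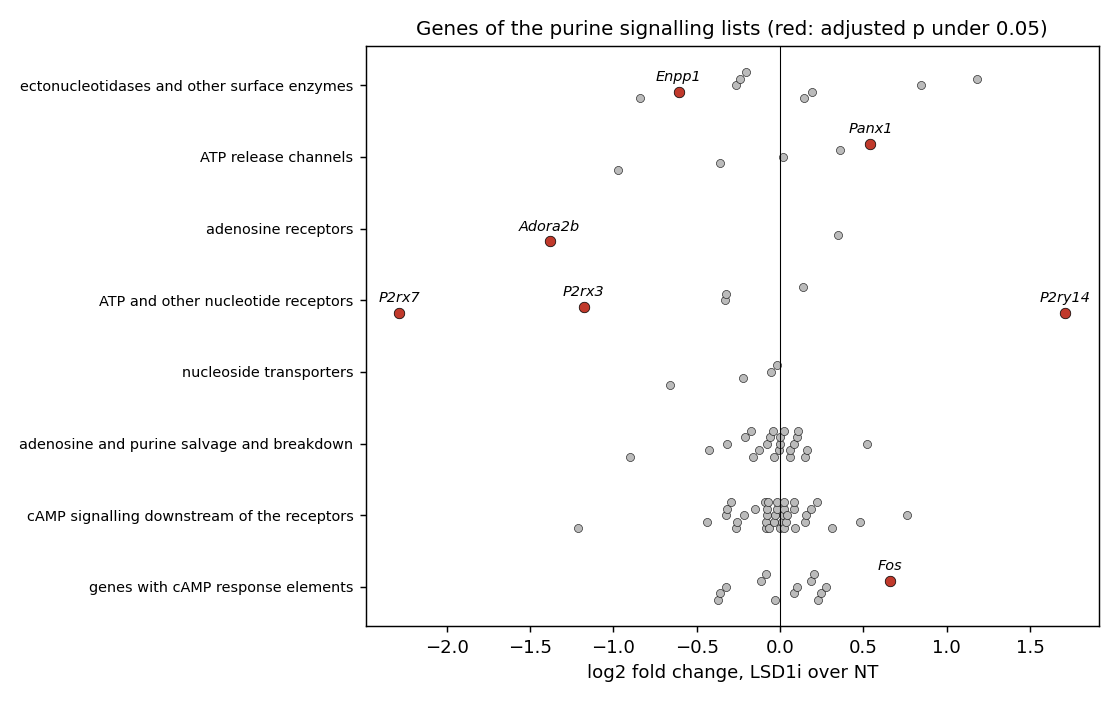
Log2 fold change of LSD1i over NT for each tested gene of the 8 lists, 1 point a gene and 1 row a list, in red where the adjusted p was under 0.05. Apart from Adora2b, the genes that passed are Panx1, P2ry14 and Fos to the right and Enpp1, P2rx3 and P2rx7 to the left of 0.

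Among 6 tested receptors for ATP and other nucleotides, 1 rose, 2 fell and 3 did not pass, with a median of −0.33. P2ry14, a receptor for UDP-sugars, was at 3.15, 5.31, 2.63 and 4.11 CPM in LSD1i 1 to LSD1i 4, against 0.572, 1.52, 1.28, 0.581 and 1.91 CPM in NT 1 to NT 5 (log2 fold change 1.71 ± 0.35, edgeR adjusted p = 0.0204). P2rx7, the ATP-gated channel that opens at high ATP, had 0.497, 0.206, 0.176 and 0.236 CPM in LSD1i and 0.648, 1.58, 1.04, 0.793 and 2.85 CPM in NT libraries (−2.29 ± 0.54, edgeR adjusted p = 0.0427). P2rx3, a channel best known from sensory neurons, had 0.442 to 0.722 CPM in LSD1i and 0.923 to 1.49 CPM in NT libraries (−1.18 ± 0.25, edgeR adjusted p = 0.0266). In all 3 the groups did not overlap, in raw counts as in batch-corrected ones, and P2rx7 and P2rx3 are near the lower limit of detection, with at most 64 and 39 counts in any library. The P2ry14 call was lost without LSD1i 2, LSD1i 4 or NT 3 (edgeR adjusted p = 0.0559, 0.0736 and 0.0503), and its log2 fold change was −0.079 under the names of the raw table. The P2rx7 call held only without NT 1 or NT 5 (edgeR adjusted p = 0.0512 to 0.143 without each of the others). The P2rx3 call held only without LSD1i 2, NT 2 or NT 5 (edgeR adjusted p = 0.055 to 0.105 without each of the others). Under the names of the raw table no listed gene was called. P2rx4, another ATP-gated channel, averaged 12.4 ± 1.23 in LSD1i and 15.6 ± 1.53 in NT cells and did not pass (−0.33 ± 0.11, edgeR adjusted p = 0.154).

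**Figure D5:**
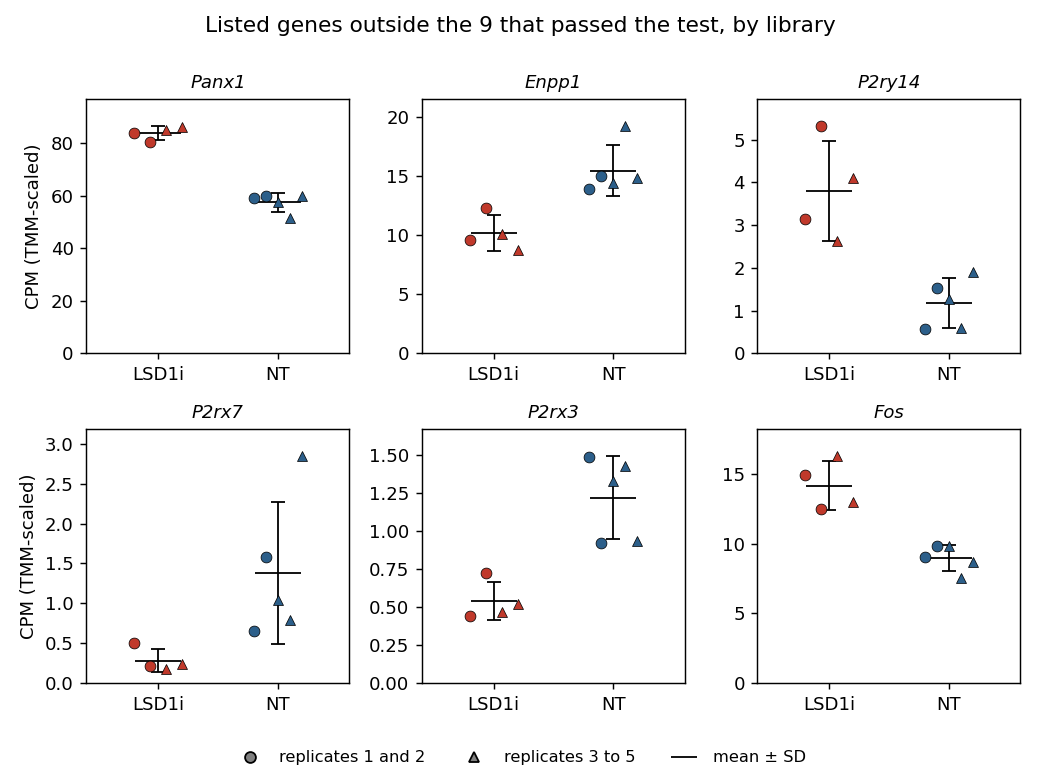
CPM by library, from batch-corrected counts, of the 6 listed genes outside the 9 that passed the test, LSD1i left and NT right, with circles for replicates 1 and 2, triangles for replicates 3 to 5 and bars for the mean ± SD. Panx1 lies at 80.3 to 86.1 CPM in LSD1i and 51.4 to 60.1 CPM in NT libraries, and the groups of each gene do not overlap, although those of Enpp1 and Fos do in raw counts.

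No gene of the lists of transport, salvage and breakdown was called by edgeR. Of the nucleoside transporters 0 of 4 tested passed in edgeR's test, 0 had an unadjusted p under 0.05 and DESeq2 called 0, with a median of −0.14, and the lowest was Slc29a3, of the lysosomal membrane, at −0.66 ± 0.33 (edgeR adjusted p = 0.405). Of adenosine and purine salvage and breakdown genes 0 of 23 passed in edgeR's test, with a median of −0.01. Of the 23, 3 had an unadjusted p under 0.05 in that test. DESeq2 called 2 of them, against 4.85% of all genes it tested. The purine nucleoside phosphorylase Pnp, which acts after Ada, averaged 33.3 ± 6.72 CPM in LSD1i and 33.5 ± 9.30 CPM in NT cells. Ak4, a mitochondrial adenylate kinase, was at 0.52 ± 0.14 (edgeR adjusted p = 0.0729).

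Downstream of the receptors, 0 of 38 tested genes of cyclic AMP signalling passed in edgeR's test, and their median log2 fold change was −0.02. Of the 38, 6 had an unadjusted p under 0.05 in that test. DESeq2 called 3 of them, against 4.85% of all genes it tested. Gnas, the stimulatory G protein alpha subunit, was at −0.02 ± 0.08 and Prkaca, a catalytic subunit of protein kinase A, at −0.03 ± 0.10. Adcy7, an adenylyl cyclase of blood cells, averaged 123 ± 6.75 CPM in LSD1i and 148 ± 7.66 CPM in NT cells and did not pass (−0.26 ± 0.07, edgeR adjusted p = 0.0878). Pag1, the membrane adaptor that recruits the kinase Csk, averaged 17.8 ± 0.791 CPM in LSD1i and 24.0 ± 3.67 CPM in NT cells and did not pass (−0.44 ± 0.12, edgeR adjusted p = 0.0717). The groups of Adcy7 and Pag1 did not overlap in batch-corrected counts and overlapped in raw counts scaled by depth. Of genes with cyclic AMP response elements 1 of 14 rose, 0 fell and 13 did not pass, with a median of 0.09. The riser was Fos, an immediate early gene, at 14.9, 12.5, 16.3 and 13 CPM in LSD1i 1 to LSD1i 4 and 9.03, 9.82, 9.81, 7.50 and 8.72 CPM in NT 1 to NT 5. It rose by 0.66 ± 0.12 on the log2 scale (edgeR adjusted p = 0.00997), and in raw counts scaled by depth its groups overlapped (10.8 to 18.9 CPM in LSD1i and 6.32 to 12.4 CPM in NT libraries). Crem (0.08 ± 0.08) and Nr4a1 (0.23 ± 0.20), other targets of cyclic AMP signalling, did not pass. Of the 14 tested genes of this list, 8 had a log2 fold change above 0 and the others below.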

How the data were processed

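Total RNA was made into libraries with a SMARTer kit, per the labels' protocols. STAR, featureCounts, edgeR and the build mm9 are named in the submitters' processing notes, without versions, and whether strand was used is not stated. Raw counts were deposited by the authors as whole-number reads per gene, with 0 entries lacking a gene name. Estimated counts after a batch correction, whose method is not given, were deposited by the authors in a second table and rounded before testing. The authors' deposited comparison holds log2 fold changes, p-values and a test score (F), per the file headers, and 247 of its genes with a false discovery rate under 0.05 carry no mark.

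Genes were tested across the whole batch-corrected table with edgeR 4.0.16 (R 4.3.3), by its quasi-likelihood test on group alone, with TMM scaling, the edgeR low-count filter (10 counts at least, 15 in total) and p-values adjusted by Benjamini-Hochberg, with calls at 0.05. This test charges nothing for the correction already made. Each standard error is the size of the unshrunk coefficient divided by the root of its F. CPM use TMM-adjusted library sizes. DESeq2 1.42.0 was an alternative. The 2 sets of libraries were found from how far the correction moved each gene, on a log2 scale (pseudocount 0.5, 9618 genes averaging at least 100 counts), whose deviations correlated at 0.755 to 0.980 within sets and −0.962 to −0.790 between them. Libraries of a group differed by more than counting noise in every pair (chi-square per degree of freedom at least 7.10). The fit on group alone was run on simulated counts that held a group effect only. They had no sets, batch correction or uncertain names, so the run does not cover those features of the data. The 9 genes and all lists were chosen with earlier results of these data known. Named are the 9 genes and the listed genes that passed. Also named are the 3 genes most correlated with each of the 9 whose log2 fold change was at least 0.5 in size (prior count 2). Cell type markers are named for CD8+ T cells, CD4+ T cells and B cells, and those of other cell types are not named. Alpl, Slc17a9, P2rx4, Slc29a3, Pnp, Ak4, Gnas, Prkaca, Adcy7, Pag1, Crem and Nr4a1 were named after their values were seen. Of the genes most correlated with Adora2b, 1 is not reported here.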

Additional observations from a re-analysis of the deposited data

How the results depend on the processing

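Over 18 alternatives the log2 fold change stayed above 0 for Nt5e (0.63 to 1.40) and below 0 for Adora2b (−2.20 to −0.50) and Entpd1 (−1.05 to −0.18), with edgeR or DESeq2 adjusted p under 0.05 in 5, 6 and 1 of them. The count of 1 gene called among the 9 became 0 with raw counts and their own names, 0 with the set as a term, 0 in replicates 1 and 2 alone, 3 with DESeq2 and 2 without the low-count filter, and ranged from 0 to 2 with 1 library left out. DESeq2 added Nt5e (adjusted p = 0.00321) and Entpd1 (0.0371), and the fit without the filter added Nt5e (0.0221), as did leaving out NT 1 (0.0271). Of the listed genes, the 3 that rose became 0 with raw names, 0 in replicates 3 to 5, 0 in replicates 1 and 2, 6 with DESeq2 and 5 without the filter (2 to 5 with 1 library left out, 5 without NT 1). The 4 that fell became 0 with raw names, 0 with the set as a term, 1 in replicates 3 to 5, 0 in replicates 1 and 2 and 9 with DESeq2 (0 to 4 with 1 library left out). They became 0 without LSD1i 1, LSD1i 3, LSD1i 4, NT 3 or NT 4, and 1 without NT 2. P2ry14 reversed to −0.079 with raw names. Panx1 and Fos were called in all 9 fits that left out 1 library. The test between sets called 1 of the 9 genes without the filter, Adora2b (edgeR adjusted p = 0.0112). The cause of these changes was not tested.

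Same-numbered libraries of the groups deviated together at −0.0871, 0.232, 0.0853 and −0.299 for replicates 1 to 4, and none of the 4 LSD1i libraries correlated best with the NT library of its number, so the numbers were not taken as pairs. The labels do not state pairs, and 4 numbers are too few to exclude them. With the replicate block, batch-corrected counts gave 1 call among the 9, Nt5e (1.01, edgeR adjusted p = 0.00213), and not Adora2b (0.0686). Number 5 is in NT only, so with the block NT 5 adds nothing to the estimated group difference. Without NT 5 and with no block, Nt5e was at 1.02 (edgeR adjusted p = 0.0727) and Adora2b at −1.27 (0.0684). Raw counts with the replicate block also gave 1, Nt5e (1.00, edgeR adjusted p = 0.00274), and the listed genes called were 4 higher and 3 lower in the batch-corrected and 4 higher and 4 lower in the raw table. Over all genes, 326 were called with the block and 397 without it.

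Raw reads per library numbered 19 to 170 for Adora2b, 37 to 253 for Entpd1, 76 to 161 for Cd38 and 63 to 282 for Ada, and a difference within their counting intervals was not detectable. For Entpd1 libraries of a group differed by more than that, with 95% intervals of 10.2 to 13 raw CPM in NT 5 and 3.45 to 5.36 in NT 4. The test between sets called 0 genes with all libraries. Without NT 2 it had NT 1 as the only NT library of replicates 1 and 2, and its calls are not read as a difference between sets.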
